A study of Mus musculus with 6 samples.

Results

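The genes described here are 38 interferon-stimulated genes, measured in monocytes from the marrow of the mandible and of the femur. They were taken by symbol from the 57010 genes of the count table, a rule that uses names and no measured values, and each symbol was found. The 6 RNA-seq libraries were 3 from mandibular marrow, S16, S19 and S23, and 3 from femoral marrow, S13, S15 and S18. Both groups came from C57BL/6 mice (C57BL/6J in the methods) at 1 year of age, the labels name no treatment, transgene or deletion, and the groups differ in the bone whose marrow was flushed. In both groups the monocytes were what passed a magnetic column after antibodies had bound other marrow cells, so that the fraction was enriched rather than sorted on a monocyte marker. The methods name male and female mice, and the sources used here do not tie an animal, a sex or a batch to a library. The labels do not say whether the 3 libraries of a group are separate animals, and p-values then measure only the spread between these libraries.

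Interferons are cytokines, and those of type I are released by cells on sensing foreign nucleic acid. Type I interferon acts through the receptor chains IFNAR1 and IFNAR2, the kinases JAK1 and TYK2, and a complex that includes STAT2 and IRF9 and binds the interferon-stimulated response element (ISRE), whereas interferon gamma acts mostly at the gamma-activated sequence (GAS). The genes switched on in this way encode proteins that degrade, bind or trap viral RNA and particles, that attack the vacuoles of intracellular pathogens, and that heighten or end the response itself. Monocytes respond strongly to interferon, and in the osteoclast lineage type I interferon is known as a brake on differentiation.

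The libraries held 15718782 to 25371474 counts on genes, and a count of 0 leaves room for up to 3 counts, or 0.133 to 0.172 CPM (counts per 1e+06 after TMM scaling), the scale of every level below. These limits cover counting error only. Of the 12 listed monocyte markers, Csf1r, Ccr2, F13a1, Ly6c2 and Spn were above 150 CPM in all 6 libraries. The other listed markers were lower in at least 1 library, among them Cd14 at 12.2 to 43.7 CPM and Fcgr4 at 3.73 to 10.6 CPM. Of the other marker lists, those of mesenchymal and bone-forming cells (10 of 12 tested genes called higher, summed level 381 to 490 CPM in the femur against 9415 to 15941 CPM in the mandible) and of enamel epithelium (6 of 7 called higher, 0.221 to 3.82 against 5817 to 11397 CPM) stood higher in the mandible. Of all tested genes 3.88% were called higher and 1.3% lower. In the mesenchymal list 2 genes, Cxcl12 and Lepr, had fitted changes below 0 and were not called. Cxcl12 was lower in every mandible library than in any femur library (log2 fold change -1.42, edgeR adjusted p = 0.084). The lists of megakaryocytes and platelets (4 of 5 called lower, 529 to 850 against 72.0 to 104 CPM) and erythroid cells (4 of 7 called lower, 194 to 1256 against 66.8 to 120.2 CPM) stood lower. All 10 neutrophil markers had fitted changes below 0 (median log2 fold change -1.29), and 1 was called. An unadjusted edgeR p under 0.05 was found for 5 of them (50%, against 16.4% of all tested genes). Their summed level was 3722 to 32930 CPM in the femur and 3962 to 10368.5 CPM in the mandible. S15 had the lowest sum of all. In every library the sum exceeded that of the 12 monocyte markers, at 2504 to 4871 CPM. The part of these lists in the results on interferon-stimulated genes was not tested. In such bulk libraries fewer cells of a type and less RNA per cell cannot be told apart. Femur S15 stood apart in breadth, with a count in 40494 genes against 17481 to 23513 in the other libraries, and 13454 genes were counted in S15 alone, with a median of 5 counts. Mandible S23 stood apart in sex-linked transcripts: it held 1441 CPM of Xist, against at most 0.553 CPM in the other 5 libraries, and no count of Ddx3y, Kdm5d, Uty or Eif2s3y, genes of the Y chromosome that had 432 to 1581 counts elsewhere. Since S23 is the only library of its kind, sex cannot be separated from that library, and all 38 members lie on autosomes. The count column of S23 is also named in a different style from those of the other 5 libraries, and the labels do not say why.

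Interferon-stimulated genes were expressed in both groups, and no member was called different between the mandible and the femur at the thresholds used. The summed level of the 38 genes was 865 CPM in S13, 1111 CPM in S15 and 938 CPM in S18 of the femur, and 1024 CPM in S16, 922 CPM in S19 and 1030.4 CPM in S23 of the mandible. The groups overlapped in this sum, with the lowest and the highest library both from the femur. The low count filter kept 37 of the 38 members and left out Ifi44. With edgeR's quasi-likelihood test and Benjamini-Hochberg adjustment over 18114 genes, with calls at an adjusted p under 0.05 and at least a 2-fold change, 0 of the 37 were called, where 5.18% of all tested genes were (3.88% higher and 1.3% lower in the mandible). The smallest adjusted p was 0.169. At an unadjusted p under 0.05 there were 4 members (10.8%, against 16.4% of all tested genes): Ifit3 and Gbp3 higher, and Isg20 and Igtp lower in the mandible. DESeq2 and limma-voom each also called 0 members, against 8.12% and 4.16% of the genes they tested, and had 4 at an unadjusted p under 0.05. That number was 1 without S13 and 1 without S16, 3 without S18 and 3 without S19, 4 without S15, and 5 without S23. The 3 libraries of one group lay wholly above those of the other in 5 members (13.5%, against 24.2% of all tested genes), with Ifit3, Ifit1 and Oas3 higher and Isg20 and Igtp lower in the mandible. Fitted log2 fold changes were above 0 in 21 members and below 0 in 16 (56.8% above, against 47.8% of all tested genes), and the median was 0.02, against -0.04 over all tested genes.

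The intervals of the single genes say how much difference these libraries could have missed. For 11 of the 37 members (29.7%, against 22% of all tested genes) the 95% interval of the fold change lay inside 2-fold in both directions, and for the other 26 a change of 2-fold in at least one direction was within the interval. Fitted changes of 2-fold or more were found in 4 members (10.8%, against 28.1%), namely Isg20, Ifit3, Ifit3b and Oasl1. Within groups the libraries were somewhat closer for these genes than in general, with a median SD of log2 CPM of 0.467 over the 37 members, 0.592 over all tested genes, and 0.564 over the 14543 tested genes in the members' range of mean log2 CPM.

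**Figure D1:**
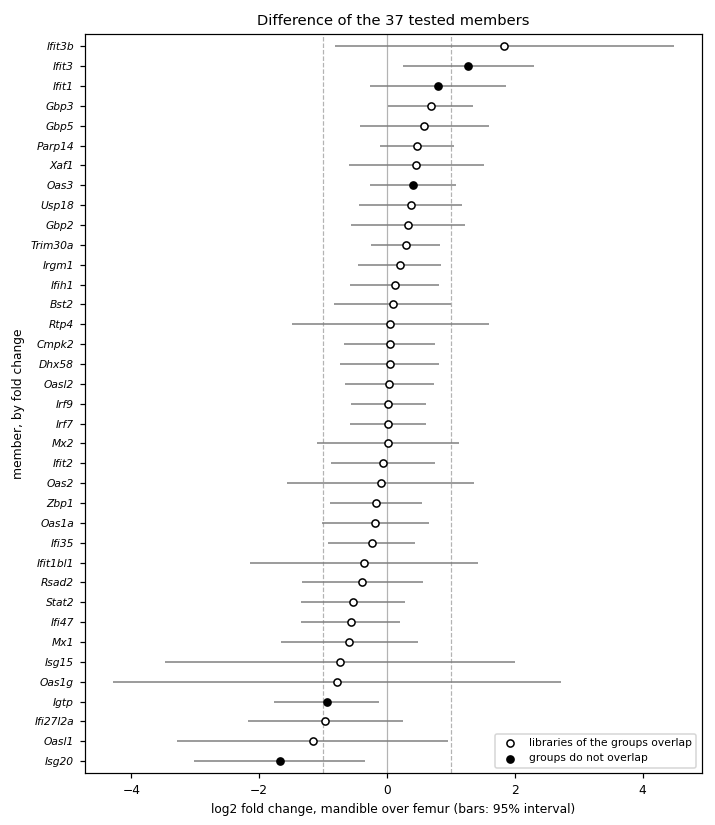
Fitted log2 fold change of the 37 tested interferon-stimulated genes, mandible over femur (horizontal axis), with 95% intervals as bars; filled points mark members whose 3 mandible libraries did not overlap the 3 femur libraries, and dashed lines mark a 2-fold change. The values run from -1.68 (Isg20) to 1.84 (Ifit3b), with 21 above and 16 below 0.

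Sequence upstream of the members was taken from RefSeq promoters (GRCm38.p6), as the 250 bases before the transcript start, for the 29 members that had an entry; Dhx58, Ifi27l2a, Mx1, Mx2, Oas2, Parp14, Rtp4, Usp18 and Zbp1 had none. The core of the ISRE, taken as the letters TTTC, any 2 bases and TTTC again, was searched on both strands and lay upstream of at least 1 start in 17 of the 29 members (58.6%), against 3.46% of the 27025 genes with an entry and 3.35% of those tested. The letters TTCNNNGAA, the core of the GAS, also read on both strands, lay upstream of 6 of the 29 (20.7%), against 8.13% of all genes, and in Bst2 the 2 kinds of match overlapped. Such a match is a description of the sequence, and the counts do not show whether a factor was bound there. Since no member was called, the windows of the 3 members with the smallest p are shown, Ifit3, Igtp and Isg20, with Ifit3b, which shares sequence with Ifit3, and Isg15, which has 3 overlapping matches, added after their values were seen. ISRE and GAS matches are in capitals, and each line runs 5′ to 3′ on the strand of the gene up to the base before the start:
Ifit3, chr19:34583279-34583528, plus strand: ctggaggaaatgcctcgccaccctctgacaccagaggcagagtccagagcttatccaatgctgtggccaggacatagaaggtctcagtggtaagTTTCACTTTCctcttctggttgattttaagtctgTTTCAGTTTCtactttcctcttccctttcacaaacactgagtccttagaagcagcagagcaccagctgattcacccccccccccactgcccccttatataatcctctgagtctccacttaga
Ifit3b, chr19:34607707-34607956, plus strand: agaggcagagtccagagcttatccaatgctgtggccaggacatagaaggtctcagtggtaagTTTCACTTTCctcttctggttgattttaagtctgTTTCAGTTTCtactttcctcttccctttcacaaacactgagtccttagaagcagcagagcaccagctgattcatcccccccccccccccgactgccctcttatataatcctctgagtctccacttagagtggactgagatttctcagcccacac
Igtp, chr11:58199306-58199555, plus strand: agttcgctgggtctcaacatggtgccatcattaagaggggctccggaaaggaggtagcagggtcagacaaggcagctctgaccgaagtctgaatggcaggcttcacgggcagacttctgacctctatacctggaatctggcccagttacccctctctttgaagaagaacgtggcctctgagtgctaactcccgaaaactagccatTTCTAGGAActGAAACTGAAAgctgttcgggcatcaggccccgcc
Isg20, chr7:78913174-78913423, plus strand: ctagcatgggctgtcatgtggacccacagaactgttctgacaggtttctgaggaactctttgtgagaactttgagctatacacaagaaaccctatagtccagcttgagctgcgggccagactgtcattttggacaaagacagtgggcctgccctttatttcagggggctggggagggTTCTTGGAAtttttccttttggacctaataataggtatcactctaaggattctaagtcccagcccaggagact
Isg15, chr4:156200819-156201068, minus strand: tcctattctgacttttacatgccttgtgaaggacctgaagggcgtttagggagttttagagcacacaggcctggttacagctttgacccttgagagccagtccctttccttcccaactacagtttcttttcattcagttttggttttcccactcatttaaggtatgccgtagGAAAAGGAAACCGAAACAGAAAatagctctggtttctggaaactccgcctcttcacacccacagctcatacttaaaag

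The windows differ in what they hold. Ifit3 and Ifit3b share an identical stretch of 169 bases, and in both the 2 ISRE matches begin 34 bases apart, at 156 and 122 bases before the start of Ifit3 and at 188 and 154 bases before that of Ifit3b. Igtp has a GAS match that begins 45 bases and an ISRE match that begins 34 bases before its start. The first of the 3 Isg20 starts has a GAS match at 73 bases and no ISRE match, and neither match was in the windows of its other 2 starts. Of the 5 members whose groups did not overlap, Ifit3, Ifit1, Oas3 and Igtp had an ISRE match and Isg20 had none.

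**Figure D2:**
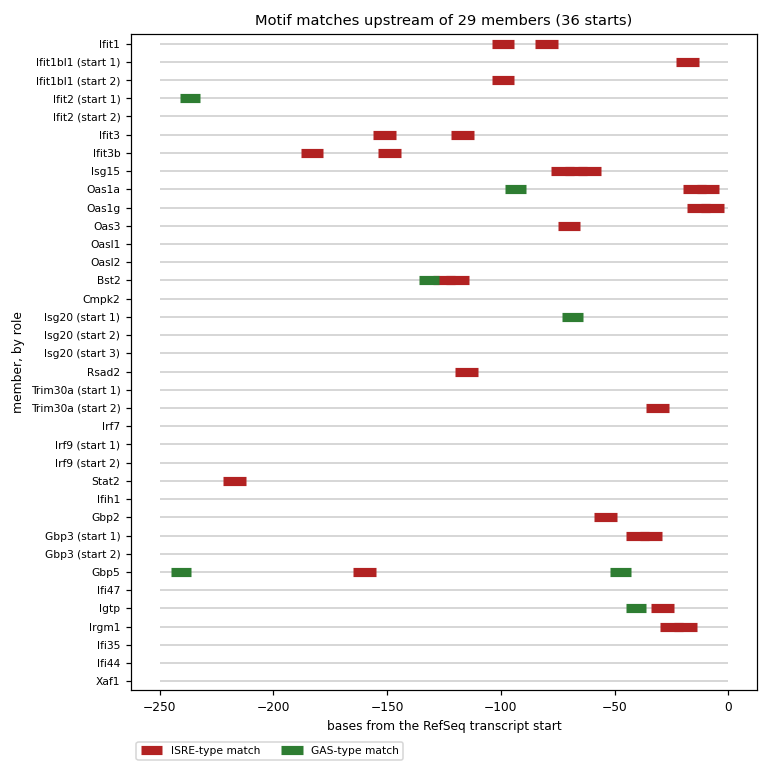
Position of ISRE-type (red) and GAS-type (green) letters in the 250 bases before 36 RefSeq starts of 29 members, in bases from the start (horizontal axis), one line per start. ISRE matches lay before 18 of the 36 starts (50%), against 2.98% of all promoters.

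The IFIT genes encode tetratricopeptide proteins that bind viral RNA and block its translation, and all 5 members lie side by side on chromosome 19 between 34550694 and 34650009 (GRCm38). None was called, and 2 of the 5, Ifit3 and Ifit1, were higher in every mandible library than in any femur library, as were 12.7% of all tested genes. Ifit3 (34583531 to 34588731) was at 5.19 (S13), 4.28 (S15) and 8.44 (S18) CPM in the femur and 19.8 (S16), 10.6 (S19) and 12.98 (S23) CPM in the mandible. The means were 5.97 ± 2.18 and 14.5 ± 4.79 CPM (SD, n = 3), for a log2 fold change of 1.27 (SE 0.47, 95% interval 0.24 to 2.31, edgeR adjusted p = 0.179). The highest femur library lay below the lowest mandible library, and the exact two-sided permutation p was 0.1, the smallest that 3 against 3 libraries can give. Ifit1, which binds RNA whose cap lacks the host's methyl marks, was at 6.30, 4.93 and 4.86 CPM in S13, S15 and S18 and at 9.96, 7.03 and 11.0 CPM in S16, S19 and S23, a log2 fold change of 0.80 (95% interval -0.27 to 1.86, edgeR adjusted p = 0.494). The groups again did not overlap, by less than 1 CPM.

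Ifit3b, a near copy of Ifit3 (34607970 to 34613401), was low and uneven. It was at 1.05, 0.507 and 1.15 CPM in S13, S15 and S18, and at 0.250, 3.18 and 6.29 CPM in S16, S19 and S23, with a log2 fold change of 1.84 (95% interval -0.81 to 4.49, edgeR adjusted p = 0.537) that was 0.87 without S23 and 0.97 with limma-voom. Mandible S16, the library with the most Ifit3, had the least Ifit3b of all 6. Of the stretches of 50 bases in the Ifit3 transcripts 51.2% occur also in another gene, all of them in Ifit3b, and 45% of those of Ifit3b occur in another gene, so that the split of reads between them is uncertain. Ifit2, which promotes cell death and restricts RNA viruses, had a mean of 27.8 ± 12.3 CPM in femur and 26.7 ± 2.81 CPM in mandible libraries (SD, n = 3), and Ifit1bl1 had 4.18 ± 2.46 and 3.27 ± 1.73 CPM. Both were lowest of the femur libraries in S15.

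ISG15 is a ubiquitin-like protein that is joined to other proteins, and USP18 removes it and also dampens the type I receptor. Isg15, on chromosome 4 from 156199424 to 156200818, was low and uneven, at 5.14, 3.18 and 5.04 CPM in S13, S15 and S18 and at 0, 1.47 and 6.58 CPM in S16, S19 and S23. Mandible S16 had no count, which allows up to 0.150 CPM, whereas S23 had the highest level of the 6. The log2 fold change of -0.73 had an interval of -3.47 to 2.01 (edgeR adjusted p = 0.868) and was -2.63 without S23, -0.15 without S16 and -2.88 with limma-voom. Usp18 was at 13.1, 15.2 and 9.41 CPM in femur and 17.9, 13.9 and 17.0 CPM in mandible libraries, a log2 fold change of 0.37 (95% interval -0.44 to 1.18, edgeR adjusted p = 0.731). Its groups overlapped through femur S15 and mandible S19.

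The OAS enzymes make oligoadenylates that switch on RNase L, which then cuts viral and cellular RNA. Of the 6 members none was called, 2 had a fitted change above 0 and 4 below, and Oas3 alone had groups that did not overlap. Oas3, on chromosome 5 from 120753098 to 120777661, was at 20.3, 15.8 and 18.1 CPM in S13, S15 and S18 and at 21.5, 24.1 and 26.0 CPM in S16, S19 and S23, means of 18.03 ± 2.26 and 23.9 ± 2.29 CPM (SD, n = 3). The log2 fold change was 0.40 (95% interval -0.27 to 1.08, edgeR adjusted p = 0.617), and it was -0.05 once a trend with gene length was removed, a correction under which the median of all genes fell to -0.18. Its neighbour Oas2 (120730333 to 120749853) behaved differently, at 4.92, 24.9 and 5.74 CPM in S13, S15 and S18 and at 12.1, 4.75 and 16.4 CPM in S16, S19 and S23. Femur S15 was the highest library for Oas2 and the other 2 femur libraries were among the 3 lowest, so that the log2 fold change of -0.10 became 1.01 without S15 (edgeR adjusted p = 0.42).

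Oasl1, which has lost the enzyme activity and holds back translation of Irf7, was uneven in the femur. It was at 3.92, 4.70 and 0.972 CPM in S13, S15 and S18 and at 1.55, 1.52 and 1.20 CPM in S16, S19 and S23, a log2 fold change of -1.16 (95% interval -3.28 to 0.96, edgeR adjusted p = 0.661). Femur S18 was the lowest library and the other 2 femur libraries were the highest, so the groups overlapped. Oasl2 was at 22.8 ± 5.43 CPM in femur and 23.3 ± 3.37 CPM in mandible libraries (SD, n = 3), with an interval of the log2 fold change of -0.66 to 0.73. Oas1a had 13.4 ± 3.15 and 11.8 ± 0.702 CPM and Oas1g 1.13 ± 1.03 and 0.654 ± 0.578 CPM. Of the 50-base stretches of Oas1a 57.6% occur in other genes, mainly Oas1g, so their counts too may have been split.

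**Figure D3:**
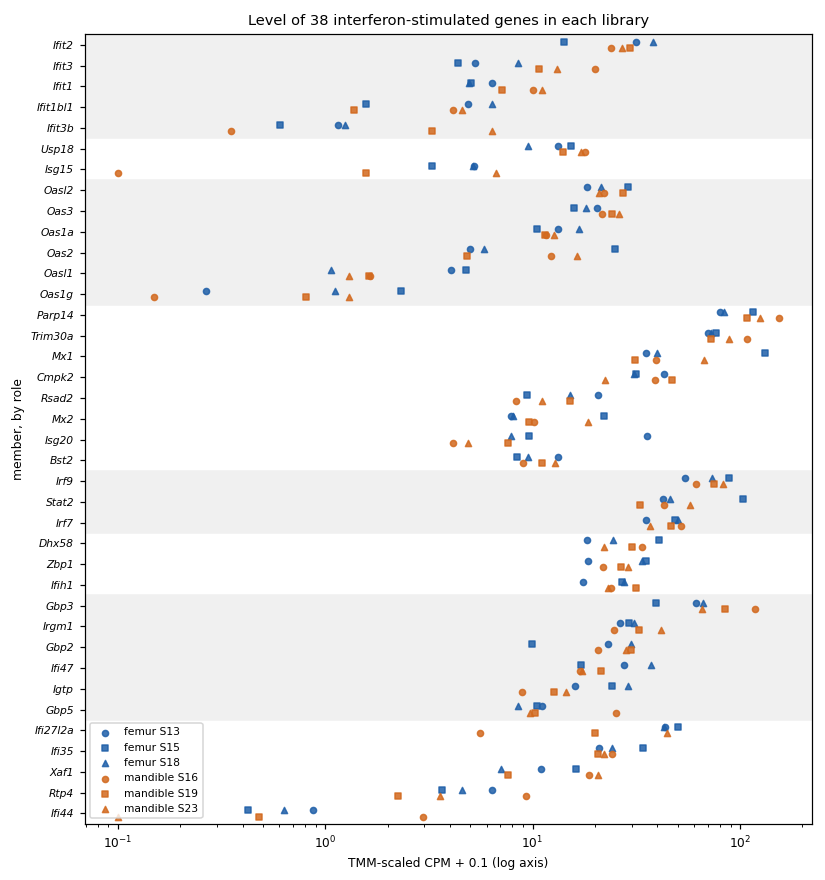
Level of each of the 38 members in each library, as TMM-scaled CPM plus 0.1 on a log axis (horizontal), with femur libraries in blue and mandible libraries in orange, 1 symbol per library, and members grouped by role in shaded bands. The colours overlap in 32 of the 37 tested members, and Isg15 and Ifi44 each have 1 mandible library at 0.

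The other direct antiviral effectors held the member with the smallest p of all. Isg20, an exonuclease that degrades single-stranded RNA, lies on chromosome 7 from 78913424 to 78920396. It was at 35.5 CPM in S13, 9.54 CPM in S15 and 7.78 CPM in S18 of the femur, and at 4.05 (S16), 7.55 (S19) and 4.80 (S23) CPM in the mandible. Every mandible library was below every femur library, the nearest pair were S18 and S19, and S13 stood far above the rest. The means were 17.6 ± 15.5 and 5.47 ± 1.84 CPM (SD, n = 3), for a log2 fold change of -1.68 (SE 0.61, 95% interval -3.01 to -0.35, edgeR adjusted p = 0.169). Without S13 the log2 fold change was -0.65, and with no filter on low counts, under which 3.77% of 42225 tested genes were called, Isg20 was called at an adjusted p of 0.0263 (edgeR). S13 was also the library with the highest summed levels of the erythroid markers (1256 CPM, against 194 and 249.6 CPM in S15 and S18) and of the 10 neutrophil markers (32930 CPM, against 3722 and 23617 CPM). In S13 the summed levels of the T and NK cell and the marrow macrophage markers were also highest, at 150.7 and 204 CPM. The other libraries had 40.8 to 118.9 and 88.1 to 176.8 CPM of these. None of the erythroid or neutrophil markers was at 0 in any library, and S100a8 was the only neutrophil marker called. The part of any of these lists in the level of Isg20 was not tested.

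Mx1 and Mx2 encode dynamin-like GTPases that block incoming virus in the nucleus or cytoplasm, and laboratory strains such as C57BL/6 carry defective alleles of both. They lie next to each other on chromosome 16, from 97447035 to 97462907 and from 97535308 to 97560900. Mx1 was at 35.0, 131.8 and 39.8 CPM in S13, S15 and S18 and at 39.2, 31.2 and 67.0 CPM in S16, S19 and S23. Mx2 was at 7.73, 21.98 and 7.95 CPM in femur and 10.1, 9.50 and 18.5 CPM in mandible libraries. For both genes S15 was the highest library and S23 the next, and the other 4 lay close together. The log2 fold change of Mx1 was -0.59 (95% interval -1.66 to 0.48, edgeR adjusted p = 0.658) and turned to 0.25 without S15, and that of Mx2 was 0.01 (-1.10 to 1.13) and 0.65 without S15.

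Viperin, the product of Rsad2, makes a nucleotide that ends viral RNA chains, and the kinase gene Cmpk2 lies beside it on chromosome 12. Rsad2 had means of 14.97 ± 5.64 CPM in femur and 11.4 ± 3.44 CPM in mandible libraries (SD, n = 3; log2 fold change -0.39, 95% interval -1.34 to 0.56), and Cmpk2 had 35.1 ± 6.97 and 36.03 ± 12.6 CPM (0.04, -0.68 to 0.76). Parp14, an ADP-ribosyltransferase, was at 80.1, 115 and 83.2 CPM in S13, S15 and S18 and at 154, 108 and 125 CPM in S16, S19 and S23, a log2 fold change of 0.47 (95% interval -0.11 to 1.06, edgeR adjusted p = 0.444). Its groups overlapped only through S15 and S19, and the value was -0.02 with the trend in gene length removed. Trim30a, a TRIM protein that restrains Toll-like receptor signalling, had 73.1 ± 3.47 and 89.5 ± 17.7 CPM (log2 fold change 0.29, 95% interval -0.25 to 0.84).

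Bst2, which encodes tetherin, the protein that holds budding virions on the cell surface, is in mouse also a marker of plasmacytoid dendritic cells, the main makers of type I interferon. It was at 10.3 ± 2.51 CPM in femur and 10.9 ± 1.95 CPM in mandible libraries (SD, n = 3), for a log2 fold change of 0.09 (95% interval -0.83 to 1.00). Of the 8 tested markers of these cells 2, Cox6a2 and Tcf4, were called higher in the mandible, as were 3.88% of all tested genes. Fitted changes were above 0 in 6 of the 8 and below 0 in 2, Ly6d (log2 fold change -0.57) and Cd300c (-0.39). The summed level of the 9 listed markers was 39.4 to 54.1 CPM in the femur and 93.4 to 122.6 CPM in the mandible, most of it Tcf4, at 36.8 ± 7.36 and 77.7 ± 11.6 CPM. Siglech, their defining marker, was at 0.875 to 3.15 CPM in the femur and 1.42 to 8.51 CPM in the mandible and was not called, and Klk1 was at 0 in 4 of the 6 libraries. The part of these cells in the levels of the members was not tested, nor was whether the Cox6a2 and Tcf4 counts came from these cells.

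Among the transcription factors and sensors the differences were small for 5 of 6 genes, and 5 of the 6 intervals lay inside 2-fold. Irf7, the factor that amplifies type I interferon output, was at 35.1, 48.3 and 50.1 CPM in S13, S15 and S18 and at 52.1, 46.6 and 36.6 CPM in S16, S19 and S23, a log2 fold change of 0.02 (95% interval -0.58 to 0.61, edgeR adjusted p = 0.985). Irf9, the DNA-binding part of the complex at the ISRE, was at 54.1, 88.0 and 73.6 CPM in femur and 61.0, 74.8 and 83.2 CPM in mandible libraries, with the same log2 fold change of 0.02 (-0.57 to 0.61). In both genes the mandible libraries lay within the span of the femur libraries, except S16 for Irf7. Stat2, which brings the activating domain to that complex, on chromosome 10 from 128270559 to 128292849, was at 42.5, 103.3 and 46.1 CPM in S13, S15 and S18 and at 42.8, 33.0 and 57.1 CPM in S16, S19 and S23. As with Mx1 and Mx2, S15 was highest and S23 next, and the log2 fold change of -0.53 (95% interval -1.34 to 0.28, edgeR adjusted p = 0.572) became -0.04 without S15.

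The 3 sensors read foreign nucleic acid. Ifih1 encodes MDA5, which binds long double-stranded RNA, and was at 23.9 ± 5.63 CPM in femur and 26.0 ± 4.60 CPM in mandible libraries (SD, n = 3; log2 fold change 0.12, 95% interval -0.58 to 0.81). Dhx58 encodes LGP2, which assists MDA5, and was at 18.3, 40.6 and 24.3 CPM in S13, S15 and S18 and at 33.6, 29.9 and 22.1 CPM in S16, S19 and S23, a log2 fold change of 0.04 (-0.73 to 0.81). Zbp1, which senses Z-form nucleic acid and can set off cell death, was at 18.4, 35.2 and 33.6 CPM in femur and 21.7, 26.7 and 28.7 CPM in mandible libraries, a log2 fold change of -0.18 (-0.90 to 0.54). For Dhx58 and Zbp1 every mandible library lay within the span of the femur libraries.

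The interferon-inducible GTPases, guanylate-binding proteins and immunity-related GTPases, act at the membranes of vacuoles that hold bacteria and parasites, and most answer strongly to interferon gamma. Of their 6 members none was called, and 4 fitted changes were above 0 and 2 below. Gbp3, on chromosome 3 from 142560026 to 142573209, was at 61.4, 39.4 and 65.9 CPM in S13, S15 and S18 and at 117.8, 84.7 and 65.7 CPM in S16, S19 and S23, a log2 fold change of 0.69 (SE 0.30, 95% interval 0.02 to 1.35, edgeR adjusted p = 0.285). Its groups just overlapped, since femur S18 and mandible S23 had nearly the same level. Igtp, on chromosome 11 from 58199556 to 58207591, was lower in every mandible library, at 15.9, 24.1 and 28.7 CPM in femur and 8.76, 12.6 and 14.4 CPM in mandible libraries. The means were 22.9 ± 6.52 and 11.9 ± 2.87 CPM (SD, n = 3), for a log2 fold change of -0.94 (SE 0.37, 95% interval -1.76 to -0.12, edgeR adjusted p = 0.219, exact permutation p = 0.1). Exons of Igtp overlap those of Irgm2 on the same strand, and 11.8% of its 50-base stretches occur in Irgm2.

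The remaining GTPases had groups that overlapped. Ifi47 had 27.3 ± 10.1 CPM in femur and 18.4 ± 2.47 CPM in mandible libraries (SD, n = 3; log2 fold change -0.57, 95% interval -1.35 to 0.21), and its exons overlap those of Olfr56. Irgm1, which guards host membranes and steers autophagy, had 28.7 ± 2.25 and 32.9 ± 8.52 CPM (0.20, -0.45 to 0.84). Gbp2 had 20.8 ± 10.04 and 26.1 ± 4.96 CPM (0.33, -0.56 to 1.22), with S15, at 9.86 CPM, lowest of all libraries. Gbp5, which supports inflammasome assembly, was at 11.0, 10.5 and 8.39 CPM in S13, S15 and S18 and at 25.1, 10.2 and 9.61 CPM in S16, S19 and S23, so that 1 mandible library carried its log2 fold change of 0.59 (95% interval -0.43 to 1.60), which was -0.004 without S16.

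Of the other interferon-induced genes, Ifi27l2a, which encodes a small mitochondrial membrane protein, had the highest level per transcript length of all members in 5 of the 6 libraries, at 43.1 to 108.9 CPM per kb of transcript. In S16 it was at 11.9 CPM per kb, below Gbp3 with 36.1 and Trim30a with 26.2 CPM per kb. The lowest means over the 6 libraries were 0.132 CPM per kb for Ifi44 and 0.382 CPM per kb for Oas1g. Ifi27l2a was even in the femur, at 43.4, 50.4 and 43.0 CPM in S13, S15 and S18, and uneven in the mandible, at 5.50, 19.9 and 44.6 CPM in S16, S19 and S23. S16 and S19 lay below every femur library and S23 among them, and the log2 fold change of -0.97 (95% interval -2.18 to 0.24, edgeR adjusted p = 0.453) was -1.89 without S23 (edgeR adjusted p = 0.0861), -0.50 without S16, -1.46 with limma-voom and -0.22 with the trend in gene length removed. S23 is the library with Xist, and whether sex has a part in this level was not tested.

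Xaf1, which encodes a partner of the apoptosis inhibitor XIAP, was at 11.3 ± 4.54 CPM in femur and 15.6 ± 7.01 CPM in mandible libraries (SD, n = 3; log2 fold change 0.46, 95% interval -0.60 to 1.52). Ifi35 had 26.3 ± 6.80 and 22.3 ± 1.75 CPM (-0.24, -0.92 to 0.44). Rtp4, which binds viral RNA, had 4.77 ± 1.40 and 4.93 ± 3.72 CPM (0.05, -1.49 to 1.59). Ifi44, the member below the filter, had 14, 7 and 12 counts in S13, S15 and S18 and 57, 8 and 0 counts in S16, S19 and S23. A single mandible library held most of its counts, and no fold change was fitted.

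From library to library the members varied in different directions. S15 had the highest level of 12 of the 37 tested members (32.4%, against 18.5% of all tested genes) and the lowest of 7 (18.9%, against 11.1%). Among the femur libraries alone S15 was the highest for 43.2% of the members and 43.6% of all tested genes. Against the mean of S13 and S18, S15 held 4.68 times as much Oas2, 3.74 times as much Oas1g, 3.53 times as much Mx1, 2.80 times as much Mx2 and 2.33 times as much Stat2. In the same library Ifit1bl1 was at 0.266, Gbp2 at 0.375, Ifit2 at 0.406, Isg20 at 0.441 and Ifit3b at 0.461 times that mean. For Isg20 the ratio reflects S13, at 35.5 CPM, since S15 at 9.54 CPM stood above S18 at 7.78 CPM. Of the genes counted in S15 alone 95% had at most 21 counts there, and only Ifit3b (11 counts) and Ifi44 (7 counts) among the members had 21 or fewer in S15. These counts take no account of gene length. The part of the broad low counts of S15 in the levels of the members was not tested. In 9 members (24.3%, against 21.02% of all tested genes) S15 was the highest femur library and S23 the highest mandible library. These were Mx1, Mx2, Oas2, Oas1g, Stat2, Irf9, Zbp1, Xaf1 and Ifi27l2a.

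**Figure D4:**
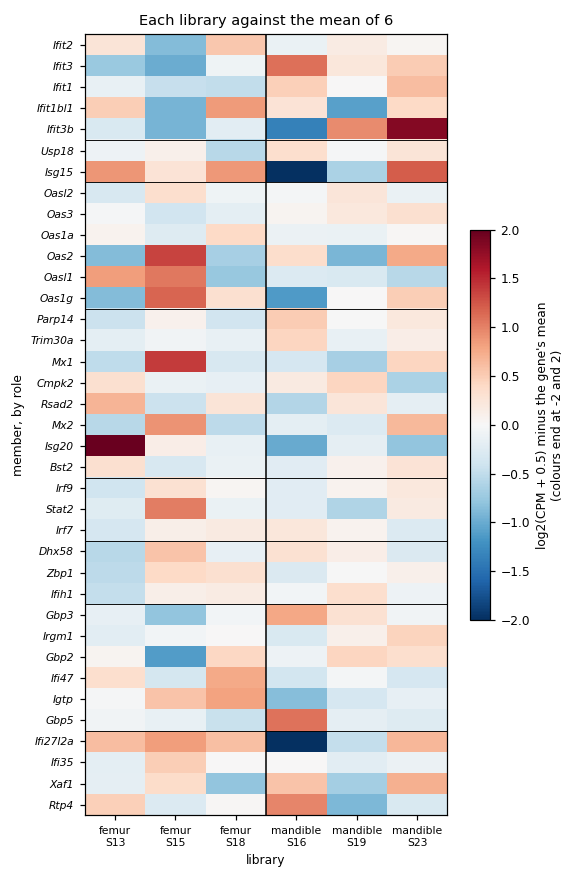
Deviation of each library from the gene's mean over the 6 libraries, in log2(CPM + 0.5), for the 37 tested members in rows grouped by role, with femur libraries left and mandible libraries right of the line (red higher, blue lower). Within S15, Oas2, Mx1 and Stat2 are above their mean while Ifit2, Ifit3 and Gbp2 are below it, and Isg20 is highest in S13.

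The rest of the pathway was read from 7 further lists with 137 genes, of which 115 passed the filter. With edgeR, 0 of the 115 were called (against 5.18% of all tested genes), and 11 had an unadjusted p under 0.05 (9.57%, against 16.4%). Of these 11, 6 were higher and 5 lower in the mandible. In 19 of the 115 the groups did not overlap (13 higher and 6 lower, 16.5% against 24.2% of all tested genes). The median log2 fold change was 0.13. DESeq2 called 1 of them, Socs1, and 2 were called without S15 (against 8.35% of all tested genes), Ifitm6 and Socs3, and these 3 are named after their values were seen. Socs1, a feedback inhibitor of JAK kinases, was at 2.43, 1.24 and 2.87 CPM in S13, S15 and S18 and at 8.71, 6.03 and 7.49 CPM in S16, S19 and S23. Socs3, which acts likewise downstream of other cytokine receptors, was at 9.45, 18.2 and 12.4 CPM in femur and 26.5, 27.9 and 27.7 CPM in mandible libraries. For both the mandible libraries lay wholly above the femur libraries. Ifitm6 was at 105.0, 42.0 and 85.7 CPM in femur and 50.5, 46.0 and 28.6 CPM in mandible libraries, and S15 lay among the mandible libraries.

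Interferon ligands were at the edge of detection. Of 21 ligand genes only Ifng passed the filter, at 0.728 ± 0.475 CPM in femur and 0.626 ± 0.813 CPM in mandible libraries (SD, n = 3), and Ifnb1 had no count in any library. S15 had a count in 14 of the 21, with at most 20 counts each. Over all 57010 genes S15 had a count in 40494, a larger share than among the ligands. The other libraries had counts in 0 to 2 of the 21, and in 17481 to 23513 of all genes. Of the receptor genes, Ifngr1 was at 280 ± 83.5 CPM in femur and 262 ± 75.8 CPM in mandible libraries (SD, n = 3), Ifnar1 at 86.4 ± 23.7 and 98.4 ± 12.7 CPM, and Ifngr2 at 80.5 ± 16.8 and 95.7 ± 27.7 CPM, the 3 with the highest mean CPM of the list. Of the 6 receptor genes 2 had a fitted change above 0 and 4 below.

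Among the other JAK and IRF genes, Irf8, the factor that directs monocyte development, was at 393 ± 106 CPM in femur and 419.6 ± 180.1 CPM in mandible libraries (SD, n = 3), Jak1 at 238 ± 46.4 and 310 ± 29.4 CPM, and Irf5 at 169 ± 79.2 and 213 ± 65.1 CPM. Among 10 negative regulators, 3 had an unadjusted edgeR p under 0.05 (30%, against 16.4% of all tested genes). In 4 of the 10 the groups did not overlap (40%, against 24.2%), with 3 higher and 1 lower in the mandible. The phosphatase genes Ptpn6, Ptpn1 and Ptpn11 were at 517 ± 47.1, 193 ± 38.7 and 155 ± 20.97 CPM in femur libraries. In mandible libraries they were at 553 ± 233, 220.5 ± 55.7 and 154 ± 54.7 CPM. Of 13 sensing genes upstream of interferon 9 had a fitted change above 0 (69.2%, against 47.8% of all tested genes). An unadjusted edgeR p under 0.05 was found for 1 of them (7.69%, against 16.4%). The kinase gene Ikbke was at 68.6, 223.5 and 70.3 CPM in S13, S15 and S18 and at 53.4, 54.6 and 87.2 CPM in S16, S19 and S23. S15 alone stood above the mandible libraries for Ikbke.

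A wider list of 65 tested interferon-stimulated genes outside the 38 had 43 fitted changes above 0 (66.2%, against 47.8% of all tested genes), 3 unadjusted p under 0.05 (4.62%, against 16.4%) and 8 with groups that did not overlap (12.3%, against 24.2%). Samhd1, which encodes an enzyme that depletes nucleotides, was at 429.5 ± 107 CPM in femur and 489.7 ± 96.1 CPM in mandible libraries (SD, n = 3), Rnf213 at 257 ± 66.3 and 368 ± 18.1 CPM, and Ly6e at 278 ± 80.0 and 342 ± 96.5 CPM. Of the 12 genes of MHC class I presentation 4 had a fitted change above 0 (33.3%), and 2 lay wholly lower in the mandible (16.7%, against 11.5% of all tested genes). H2-D1 was at 761 ± 206 and 818 ± 147 CPM, H2-K1 at 371 ± 52.6 and 418 ± 32.3 CPM, and B2m at 326 ± 164 and 302 ± 41.7 CPM. For these 3 genes the SD within at least 1 group was larger than the difference of the means.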

How the data were processed

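RNA-seq was made by the authors from 6 monocyte libraries, 3 per bone. Per the methods, the paired-end reads were trimmed (Trimmomatic), aligned to a genome named as GRCm38 (HISAT2 2.1.0) and assigned to genes by the authors (featureCounts); the deposited values are raw counts per gene and library. Strand use, treatment of reads with several positions and the featureCounts version are not given in the sources used here. Of 52029 genes shared with GENCODE M21 (GRCm38), 2979 have a table interval that falls inside the M21 gene, and M21 positions, matched by Ensembl identifier, are given instead.

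The counts went into edgeR 4.0.16 under R 4.3.3 (filterByExpr, minimum count 10 and total 15; TMM; quasi-likelihood test; prior count 0.125), without covariates, on 18114 genes, with a call at an adjusted p (Benjamini-Hochberg) under 0.05 together with at least a 2-fold change. Levels are TMM-scaled CPM computed here, and single genes were also compared by exact permutation (two-sided, log2 CPM with a prior count of 2). Alternatives were DESeq2 1.42.0, limma-voom (limma 3.58.1), RLE or no normalization factors, TMM without mitochondrial, hemoglobin, immunoglobulin and rRNA genes, other filters (none; at least 10 counts in every library), no fold threshold, a loess (span 0.4) on gene length, a prior count of 0.5 in the permutation test, and each library left out. The scripts were tested on simulated data. Each library has its own sample number, which does not show whether a femur and a mandible library came from the same animal. No pairs were therefore formed, and any pairing was ignored.

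The members, gene lists and tests were chosen with earlier results of these data known. Every member could be named. Values per library were given by rule for members called, for members whose groups did not overlap, for the highest level and the largest fitted change in each role, and for members below the filter. Ifit2 and Oasl2, the highest of their roles by mean CPM, are given as group means and SD only. Some others were added after their values were seen. Outside the members, the rule took called genes and the 3 genes (2 for marker lists) with the highest CPM in each list. The values of several of these genes, mainly in the marker and ligand lists, are not given here. Some other genes of these lists were added after their values were seen. Other marker lists (neutrophils, B cells, T and NK cells, endothelium, marrow macrophages) held 1, 0, 0, 0 and 1 called genes, all lower in the mandible, and the monocyte list 1, Nr4a1, higher. All 10 neutrophil markers had fitted changes below 0. The paper's qRT-PCR, staining and demineralization experiments were not analysed here.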

Additional observations from a re-analysis of the deposited data

How the results depend on the processing

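With 3 libraries per group, 26 of the 37 tested members had intervals that reached a 2-fold change, so a difference of that size was not excluded for them. No paired analysis was possible, because the labels do not say whether a femur and a mandible library came from the same animal.

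The number of genes called, 938, was 1758 with DESeq2 and 1590 with no low count filter, and leaving out 1 library gave from 434 (without S19) to 1565 (without S15), with 509, 552 and 551 without S13, S18 and S23. The members called stayed at 0 in every other alternative and were 1 (Isg20) with no low count filter. Genes of the other pathway lists called were 1 with DESeq2, and 0 to 2 with 1 library left out. The members' median log2 fold change, 0.02, was -0.13 with the gene length trend removed, where that of all genes was -0.18, and ran from -0.09 (without S13) to 0.12 (without S15).

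Of 330 member values under the alternatives with all 6 libraries, 311 had the sign reported, and of 222 with 1 library left out, 184 had it; 21 members changed sign at least once, none of them called. The following are log2 fold changes, and the cause of the changes was not tested. With the gene length trend removed they were -0.022 for Parp14, -0.046 for Oas3, 0.000466 for Ifi35, -0.14 for Irgm1, -0.36 for Ifih1, -0.13 for Cmpk2, -0.29 for Oasl2, -0.25 for Irf9, -0.094 for Irf7 and -0.034 for Mx2. With limma-voom they were 0.063 for Ifit2, 0.068 for Oas2 and -0.16 for Rtp4, and with no normalization factors 0.10 for Ifit2. With no low count filter they were -0.000206 for Cmpk2, -0.010 for Irf9, -0.026 for Irf7, -0.041 for Rtp4 and -0.0092 for Mx2. With 1 library left out the ranges were -0.0037 to 0.77 for Gbp5, -1.02 to 0.25 for Mx1, -0.053 to 0.67 for Gbp2, -0.059 to 0.37 for Irgm1, -1.61 to 0.10 for Oas1g, -0.38 to 0.010 for Oas1a, -0.81 to 0.053 for Ifit1bl1, -0.086 to 0.24 for Ifih1, -0.10 to 0.30 for Bst2, -0.42 to 0.24 for Ifit2, -0.55 to 1.01 for Oas2, -0.25 to 0.24 for Cmpk2, -0.18 to 0.38 for Dhx58, -0.14 to 0.19 for Oasl2, -0.14 to 0.15 for Irf9, -0.12 to 0.12 for Irf7, -0.76 to 0.36 for Rtp4 and -0.41 to 0.65 for Mx2.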
